A study of Danio rerio with 18 samples.

Results

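Gene expression in the NMLF of zebrafish, the nucleus of the medial longitudinal fascicle, was compared between 12 h and 4 h after the spinal cord was cut, with 3 arrays at 12 h and 3 arrays at 4 h. These 6 arrays are those of the 18 in the series whose titles give a transected cord at 12 h or at 4 h. The same step in time, measured on 3 sham arrays at 12 h and 3 sham arrays at 4 h, stands beside it. What changed after transection can so be set against what changed over the same hours after sham surgery. The series as a whole covers 6 groups of 3 Affymetrix arrays, with and without transection at 3 times, and was made to separate early events in the NMLF from those of the period in which axons regrow. NMLF tissue was cut out of brain sections by laser capture microdissection, and its RNA was amplified before it was put on the array.

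The groups were NMLF from fish with a transected spinal cord at 12 h, NMLF from fish with a transected spinal cord at 4 h, NMLF from sham-operated fish at 12 h and NMLF from sham-operated fish at 4 h. All fish had surgery, and all were kept in a daily cycle of light and dark. Strain, genotype, age and sex, the number of fish behind a sample, and the clock time of surgery or of tissue collection are not named in the labels used here. The p-values therefore measure the spread between these samples, which may be technical, and the number of arrays limits the precision of every value. With those clock times unknown, hours after surgery and hour of the day cannot be told apart in either step.

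The NMLF is a cluster of large neurons in the midbrain tegmentum whose axons descend into the spinal cord, where they drive swimming, and in zebrafish these axons can grow back across a cut. An axotomized neuron is known to change its programme of transcription within hours. Many genes of lipid synthesis, amino acid uptake and the circadian clock also follow feeding, stress and the light cycle in intact fish. Cholesterol synthesis genes are switched on together by the sterol-sensing transcription factor SREBP2 when cell sterol is low. The clock runs on Bmal and Clock proteins, which activate the Per, Cry and Rev-erb (nr1d) genes that in turn repress them.

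A signal below is a quantile-normalized array intensity with a floor at 16, a group level is a geometric mean of 3 arrays, and a change is the log2 difference of 12 h minus 4 h with its standard error (SE). On the transected arrays, neuron markers were strong: snap25a, a synaptic membrane fusion gene, had signals of 5345, 5270 and 5010 at 12 h, against 3282, 3994 and 4319 at 4 h. The gonadotropin-releasing hormone gene gnrh2, which is made in midbrain tegmentum, had 5184, 5184 and 5939 at 12 h, against 7820, 8624 and 7329 at 4 h. Of 26 markers of other brain regions, 10 lay at the floor on all 3 transected arrays at 12 h and 12 at 4 h, among them the pituitary hormone prl and the hypothalamic peptide oxt. Others were clearly detected: the geometric means at 12 h and 4 h were 1288 and 1038 for pvalb7, and 786 and 786 for zic2a. Myelin and blood were also in the captured tissue, as the myelin gene mbpa was at 13722 or more and the globin gene hbaa1 at 4014 or more on each of the 6.

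A measure of RNA length moved with time. GAPDH control probes at the 3' end gave a signal that was divided by that of probes at the 5' end, a GAPDH ratio that is larger in RNA that is shortened or less fully copied. It was 4.31, 4.78 and 4.77 at 12 h after transection, against 1.73, 1.90 and 2.04 at 4 h after transection. In sham fish it was 3.15, 3.72 and 5.40 at 12 h, against 1.53, 1.78 and 1.64 at 4 h. The step was 2.44-fold in transected and 2.42-fold in sham fish, each without overlap (two-sided exact permutation test, p = 0.1, the smallest that 3 against 3 arrays allow). The spiked-in BioB-3 hybridization control was read from the deposited intensities, before normalization. It was 2.75-fold higher at 12 h than at 4 h in transected fish (exact p = 0.1) and 1.25-fold higher in sham fish (exact p = 0.5). The mean deposited intensity, with 2% trimmed from both tails, was lower for replicate 3 at 4 h. It was 92.6 there in transected and 100.3 in sham fish, against 149.9 on the other arrays. The part of that array scale in the BioB-3 folds was not tested. RNA length and time after surgery cannot be told apart by group, and the part of RNA length in the changes below was not tested beyond the fit with the ratio as a covariate, which is given with the counts. Arrays of a group correlated at 0.970 to 0.977 at 12 h and at 0.960 to 0.983 at 4 h after transection. In sham fish they correlated at 0.975 to 0.981 at 12 h and, lower than in the other groups, at 0.936 to 0.965 at 4 h. The part of this in the sham counts below was not tested.

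Between 12 h and 4 h after transection, 4 of 13 cholesterol synthesis genes were called lower (adjusted p under 0.05), against 0.796% of all genes. In sham fish 11 of the 13 were lower too, with none called. Other single falls were those of odc1 of polyamine synthesis, the amino acid transporter chain gene slc3a2b and the actin-binding gene msna. Those that rose included mpx, the myeloperoxidase of neutrophils, the TNF receptor gene tnfrsfa and the transcription factor gene runx2a, each called on 1 of several probe sets. Mpx and tnfrsfa also rose without overlap in sham fish, where neither was called. Of 6 fits that each left out 1 transected array, 2 called mpx, 3 called tnfrsfa and 1 called runx2a. Among the falls, 2 of the 6 fits called odc1, 1 called slc3a2b and 1 called msna. Of the cholesterol synthesis calls, hmgcs1 held in 6 fits, fdft1 in 3, msmo1 in 2 and nsdhl in 2. The linear model of limma called 191 of 15502 probe sets at an adjusted p under 0.05, which is 1.23%, with 103 higher (0.664%) and 88 lower (0.568%) at 12 h. The median change was 1.28 among the rises and -1.03 among the falls, and the transected groups did not overlap for any of the 191. Of all 8793 genes, 1906 (21.7%) were without overlap in this step. The 191 were picked by the p-value of the same contrast, which largely sets this separation. Of the 191 probe sets 150 carried a single gene symbol, and they stood for 149 genes. Many were dim: 43 of the 191 had a level below 64 at both times, and 17 lay wholly at the floor at one of the times.

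In sham fish the same step gave 4 calls, or 0.0258% of the probe sets. At an unadjusted p under 0.05 there were 2115 probe sets (13.6%) in transected fish and 899 (5.8%) in sham fish. The 4 sham calls were hsf2 and nr1d2b, given below, a probe set with no gene symbol that was lower at 12 h, and abracl, an actin regulator, which is named here because it was called in both steps. Abracl had 32.2, 42.8 and 36.9 at 12 h, against 79.3, 85.6 and 68.7 at 4 h after transection (-1.07 ± 0.14, adjusted p = 0.0043), and 36.5, 46.7 and 32.7 in sham fish at 12 h, against 72.2, 80.6 and 81.6 in sham fish at 4 h (-1.03 ± 0.14, adjusted p = 0.042). Most of the 191 nevertheless leaned the same way there: 176 had a sham change of the same sign, 10 the opposite sign and 5 a change of 0. Over all probe sets with a nonzero transected change, 63.1% had the same sign in sham fish. Among the 191, 95 were also without overlap in the same direction in sham fish, against 10.3% of all genes without overlap there in either direction, and 93 had a sham change in the same direction at an unadjusted p under 0.05. The sham change was smaller in size for 187 of the 191, with medians of 0.51 for the rises and -0.36 for the falls. The 191 were picked for their transected change, so its larger size is partly set by that choice. The direct test of transected step minus sham step called 2 probe sets, or 0.0129%, with 535 (3.45%) at an unadjusted p under 0.05. Same-numbered transected and sham arrays deviated together at 4 h (correlations of 0.64, 0.40 and 0.27) but not throughout at 12 h (0.11, -0.01 and 0.14), and with a replicate block within each time the test called 1 probe set, with 1111 at an unadjusted p under 0.05.

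**Figure D1:**
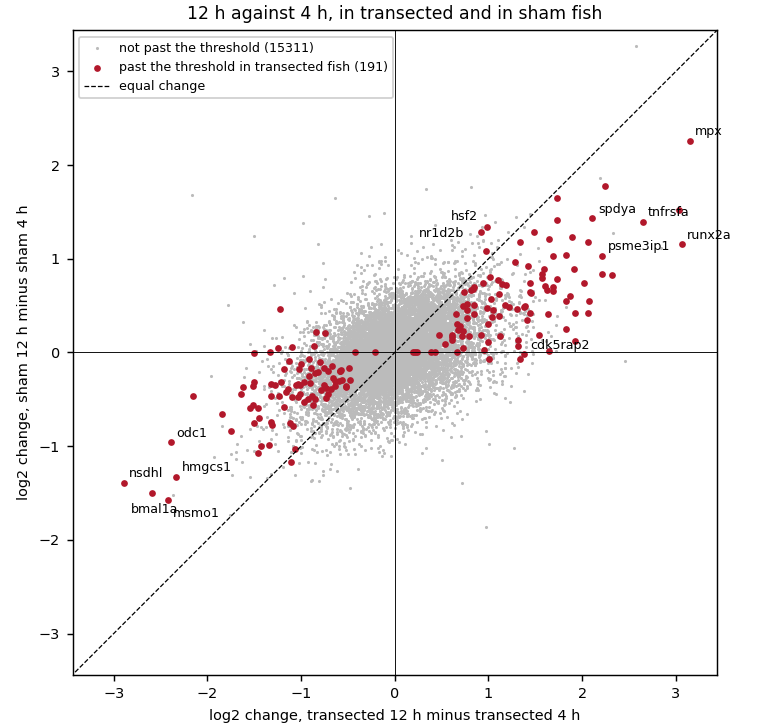
Each of the 15502 probe sets is placed by its log2 change from 12 h minus 4 h in transected fish (horizontal) and in sham fish (vertical), with the 191 called in transected fish in red and the line of equal change dashed. Most red points share their sign with the sham step and lie nearer to 0 on the sham axis, while hsf2 and nr1d2b lie above the dashed line and cdk5rap2 lies at a sham change of -0.02.

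The count of calls depended on single arrays and on the GAPDH ratio. Leaving out 1 transected array at a time gave 34 to 282 calls: 34 without replicate 2 and 51 without replicate 1 at 4 h, 42 without replicate 1, 69 without replicate 2 and 282 without replicate 3 at 12 h, and 102 without replicate 3 at 4 h. With the GAPDH ratio as a covariate 3 probe sets were called, while all 191 kept their sign. Their medians were then 1.26 for the rises and -0.90 for the falls, and the median SE was 0.345, against 0.205 without the covariate. Single genes moved both ways: the change was then -0.22 for psmb7, -0.20 for atp5l, -0.26 for atp1a1b and -0.86 for msna, nearer to 0, and -4.18 for nsdhl, 2.65 for flt4 and 1.43 for nr1d2b, farther from 0. Of the 61 called genes picked by the naming rule, 11 were called whichever transected array was left out: hmgcs1, hk2, aars1, cpvl, dnajc5ga and g3bp1 among the falls, and psme3ip1, spdya, ptpn12, pdzk1ip1 and riok1 among the rises. For 6 others, actn1, arhgef16, fetub, gata1a, mrpl32 and psmc4, each single array left out ended the call.

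Of all 8793 genes measured, 3535 were higher and 4259 lower at 12 h after transection, and 1.56% were called. Each gene list below can be set against these values. Cholesterol synthesis genes gave the lowest median of the 37 gene lists. Of 13 genes measured, 11 were lower and 2 higher at 12 h, the median change was -1.32 (-1.95 with the GAPDH ratio as a covariate) against 0.00 over all 8793 genes, and 4 of the 13 (30.8%) fell past the threshold, against 1.56% of all genes called and 0.796% called lower. In sham fish 11 of the 13 were lower too, with a median of -0.47 and no call, and the difference of the steps was called for none of the 13 (limma, adjusted p = 1). The transected groups did not overlap for 8 of the 13, all lower at 12 h, against 12.1% of all genes, and the sham groups did not overlap for 5, all lower, against 5.36%.

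The 4 calls ran from the start of the pathway to its later steps. At its start, hmgcs1 makes HMG-CoA, the precursor of mevalonate, and had signals of 258, 278 and 398 at 12 h, against 1741, 2053 and 1014 at 4 h. All 3 arrays at 12 h lay below 400, and replicate 3 at 4 h stood nearest to them. Its change was -2.33 ± 0.33 (SE, limma adjusted p = 0.0079). In sham fish it had 272, 332 and 506 at 12 h, against 778, 854 and 1087 at 4 h, again without overlap (-1.33 ± 0.33, adjusted p = 0.45). The 12 h arrays of transected and sham fish overlapped, while at 4 h the transected arrays of replicates 1 and 2 lay above all sham arrays.

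At the first step committed to sterols, squalene synthase (fdft1) had 130, 184 and 174 at 12 h, against 466, 528 and 328 at 4 h (-1.43 ± 0.24, adjusted p = 0.018). Both demethylation genes fell by more. The methylsterol oxidase gene msmo1 had 99.4, 116 and 179 at 12 h, against 999, 707 and 452 at 4 h (-2.42 ± 0.40, adjusted p = 0.017). Its partner nsdhl, a sterol dehydrogenase, had 16, 19.4 and 26.6 at 12 h, against 209, 265 and 61.4 at 4 h (-2.89 ± 0.54, adjusted p = 0.024). For nsdhl the 12 h arrays lay at or just above the floor and replicate 3 at 4 h was far below the other 4 h arrays, without overlap between the times. In sham fish fdft1 had 166, 195 and 188 at 12 h, against 326, 522 and 283 at 4 h. The sham change was -1.58 ± 0.40 for msmo1 and -1.39 ± 0.54 for nsdhl, and all 3 genes were without overlap in sham fish with none called.

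Of the other members, the sterol sensor partner insig1, which holds SREBP back, had 63.4, 145 and 127 at 12 h, against 396, 423 and 384 at 4 h on its brightest probe set (-1.93 ± 0.44, adjusted p = 0.057). A dimmer insig1 probe set passed at -1.46 ± 0.25 (adjusted p = 0.018), with 40.9, 57.5 and 68.9 at 12 h, against 134, 179 and 140 at 4 h, and the third was at -1.04 ± 0.36 (0.20). Mevalonate kinase (mvk) was at -1.32 ± 0.36, fdps at -1.09, cyp51 at -1.96 ± 1.00 and the last reductase of the pathway, dhcr7, at -0.85, none of them called. For cyp51 single arrays spread widely, with 221, 69.3 and 303 at 12 h, against 934, 625 and 464 at 4 h. Leaving out replicate 3 at 12 h, the array with the highest 12 h signal for hmgcs1, msmo1 and nsdhl, made their falls larger, as it must. Other arrays left out made falls smaller. The change of hmgcs1 was -2.12 without transected 4 h replicate 2, and that of msmo1 was -2.15 without transected 4 h replicate 1. Without transected 4 h replicate 1 the median of the list was -1.07.

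**Figure D2:**
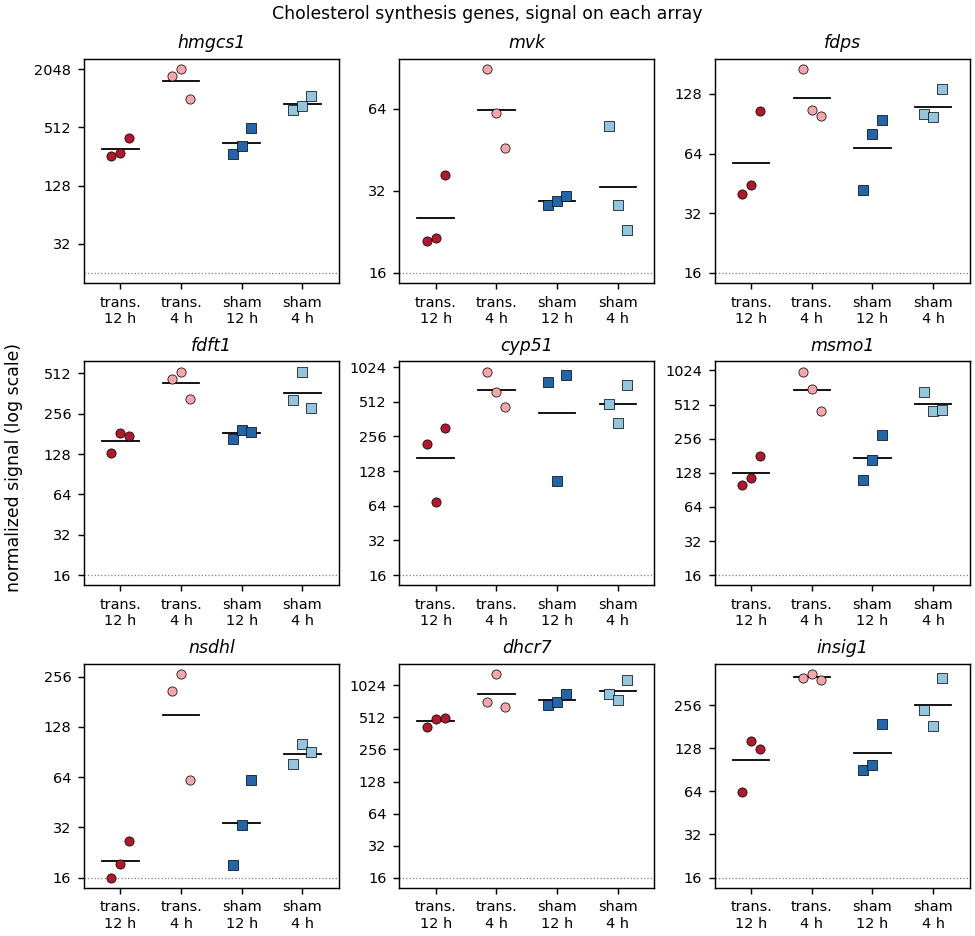
Signals of 9 cholesterol synthesis genes on each of the 12 arrays at 12 h and 4 h (points, log scale; lines are geometric means, and the dotted line is the floor at 16), with transected groups as circles and sham groups as squares. For hmgcs1, fdft1, msmo1 and nsdhl both 12 h groups lie below both 4 h groups except where a sham 12 h array of nsdhl meets the lowest transected 4 h array, while cyp51 and fdps show wide spread.

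Among the largest falls outside that list were mid1ip1b, aldh3a2a and odc1. The lipogenesis regulator mid1ip1b had 206, 362 and 296 at 12 h, against 1209, 922 and 760 at 4 h (-1.75 ± 0.30, adjusted p = 0.018), although its dimmer second probe set was at -0.11. The fatty aldehyde dehydrogenase gene aldh3a2a had 19.8, 38.7 and 48.7 at 12 h, against 129, 118 and 112 at 4 h (-1.84, adjusted p = 0.019). The sham change was -0.83 for mid1ip1b, without overlap, and -0.65 for aldh3a2a, with overlap. Ornithine decarboxylase (odc1), the rate-limiting enzyme of polyamine synthesis, had 117, 77.1 and 125 at 12 h, against 521, 598 and 523 at 4 h. Its 4 h arrays lay close together and far above each 12 h array (-2.39 ± 0.41, adjusted p = 0.018). With the GAPDH ratio as a covariate the change of odc1 was -1.18 (adjusted p = 0.40). In sham fish odc1 overlapped between the times, with 128, 215 and 79.8 at 12 h, against 395, 262 and 156 at 4 h (-0.96 ± 0.41).

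The amino acid transporter chain slc3a2b, shared by several exchangers of the cell surface, had 590, 337 and 690 at 12 h, against 1529, 1456 and 1804 at 4 h (-1.62 ± 0.28, adjusted p = 0.018). The sham groups overlapped for it (-0.37 ± 0.28). It was the only call among 32 antioxidant, metallothionein and iron genes (3.12%, against 1.56% of all genes). Of these 32 genes, 24 were lower and 7 higher at 12 h with a median of -0.35, beside -0.20 in sham fish. Amino acid charging genes were also low: of 18 aminoacyl-tRNA synthetases 14 were lower, with a median of -0.29 (-0.33 in sham fish), and the 2 called (11.1%) both fell. The threonine enzyme gene tars1 had 148, 144 and 216 at 12 h, against 330, 346 and 330 at 4 h (-1.01 ± 0.18, adjusted p = 0.018). The alanine enzyme gene aars1 had 280, 299 and 344 at 12 h, against 512, 508 and 452 at 4 h, one of the tightest falls (-0.68 ± 0.07, adjusted p = 0.0015). For aars1 the sham arrays showed a fall without overlap as well, with 376, 354 and 387 at 12 h, against 472, 488 and 503 at 4 h (-0.39 ± 0.07, adjusted p = 0.29).

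Among 42 genes of glycolysis and the response to low oxygen, 20 were higher and 21 lower with a median of -0.01 (0.11 when arrays were scaled to one trimmed mean). Of the 42, 3 (7.14%) passed, all lower, against 0.796% of all genes called lower. Hexokinase 2 (hk2), which starts glycolysis, was at the floor on all 3 arrays at 12 h, against 48.6, 73.0 and 35.1 at 4 h, a level at least 3.12-fold lower (adjusted p = 0.011). In sham fish hk2 was at the floor on all 3 arrays at 12 h too, against 16, 32.6 and 19.9 at 4 h. The vascular growth factor gene vegfaa had 60.9, 60.3 and 92.2 at 12 h, against 233, 164 and 138 at 4 h (-1.32, adjusted p = 0.030). Phosphoglycerate mutase (pgam1a) had 1046, 1140 and 1572 at 12 h, against 2255, 2438 and 2159 at 4 h (-0.89 ± 0.15, adjusted p = 0.018). In sham fish vegfaa was at -0.33 and pgam1a at -0.46, neither called.

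Several genes for actin-binding proteins fell. Moesin (msna), which ties actin to the cell membrane, had 604, 777 and 1160 at 12 h, against 2017, 2839 and 2173 at 4 h (-1.51 ± 0.28, adjusted p = 0.025), while its dimmer second probe set was at -0.79 and did not pass. The actin crosslinker actn1 had 63.8, 53.8 and 34.3 at 12 h, against 162, 121 and 136 at 4 h (-1.50, adjusted p = 0.037). Filamin A (flna), another crosslinker, was at -0.64 ± 0.11, the smooth muscle actin acta2 at -0.80 ± 0.17 and the alpha tubulin tuba5 at -0.78 ± 0.16, all called. Of the 70 actin and tubulin genes listed, 39 were lower and 28 higher, beside 4259 lower and 3535 higher of all 8793 genes. The median of the 70 was -0.10 (-0.25 with the GAPDH ratio as a covariate). Msna, acta2, tuba5 and flna were the 4 called (5.71%, against 1.56% of all genes). In sham fish msna had 1093, 1045 and 1039 at 12 h, against 1546, 2379 and 1546 at 4 h, also without overlap (-0.75). Actn1 and acta2 overlapped between the sham times.

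The remaining large falls named by the rule were those of thoc5, a subunit of the THO complex for mRNA export, and tasor2. Thoc5 had 34.2, 16 and 38.4 at 12 h, against 70.4, 75.6 and 88.7 at 4 h (-1.50, adjusted p = 0.035), and 58.8, 41.4 and 65.0 in sham fish at 12 h, against 44.6, 68.6 and 52.4 in sham fish at 4 h. Its sham change was -0.01, so only the transected groups separated, yet the difference of the steps did not pass (-1.49 ± 0.43, adjusted p = 1). Tasor2 had 66.3, 43.1 and 71.4 at 12 h, against 178, 144 and 166 at 4 h (-1.46, adjusted p = 0.033).

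The largest named rise was that of mpx. This neutrophil granule enzyme had 272, 342 and 109 at 12 h, against 43.5, 16 and 20.9 at 4 h (3.15 ± 0.55, adjusted p = 0.018). All 12 h arrays were above 100 and all 4 h arrays below 50. Sham fish showed the same order, with 216, 112 and 319 at 12 h, against 27.0, 40.3 and 64.3 at 4 h (2.26 ± 0.55, adjusted p = 0.45). The other 3 mpx probe sets lay at the floor in both transected groups. No other of the 29 microglia and leukocyte markers passed as a rise, and 14 of them were higher and 15 lower (median -0.07, and -0.37 with the GAPDH ratio as a covariate). Of the 29, 1 was called higher, against 0.762% of all genes called higher, and 1 was called lower, against 0.796%. The list had 6.90% called in either direction, against 1.56% of all genes. Tspan36 was its other call at -1.23, and whether tspan36 marks leukocytes in this tissue was not tested. Lyz, lysozyme, had 84.8, 16 and 16 at 12 h, against 97.3, 79.2 and 64.7 at 4 h. The summed signal of the 29 ranged from 8736 to 9546 at 12 h and from 7441 to 13926 at 4 h. In this bulk tissue, more cells of a type and more RNA per cell cannot be told apart.

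Tnfrsfa, a TNF receptor family gene, had the strongest signal among the named rises, with 11830, 13722 and 9604 at 12 h, against 3023, 1250 and 1681 at 4 h (2.65 ± 0.44, adjusted p = 0.017). In sham fish it had 7118, 3869 and 9604 at 12 h, against 2449, 2057 and 2893 at 4 h, without overlap as well (1.39 ± 0.44). Its dimmer probe sets were at 1.07 and -0.35 and did not pass. The change of tnfrsfa on its brightest probe set was 1.62 with the GAPDH ratio as a covariate (limma adjusted p = 0.34). Runx2a, a transcription factor known from bone formation, had 1436, 1889 and 1028 at 12 h, against 274, 125 and 140 at 4 h (3.06 ± 0.63, adjusted p = 0.037). Of the sham 12 h arrays only replicate 1 was comparable, at 1049, while the others had 236 and 270. The second runx2a probe set lay near the floor at both times (-0.02), so for both genes the rise rests on 1 probe set.

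Spdya, psme3ip1 and ptpn12 had the smallest adjusted p among the 12 largest named rises. Spdya, an activator of cyclin-dependent kinases, had 7220, 7030 and 5616 at 12 h, against 2125, 1202 and 1388 at 4 h (2.11 ± 0.22, adjusted p = 0.0014). Its sham arrays had 4448, 3901 and 3691 at 12 h, against 1326, 1758 and 1400 at 4 h (1.43 ± 0.22, adjusted p = 0.068). The second spdya probe set lay at the floor at both times in transected and in sham fish, so the rise rests on 1 probe set. Psme3ip1, named for a partner of a proteasome activator, had 4591, 5138 and 3625 at 12 h, against 849, 934 and 1078 at 4 h (2.21 ± 0.24, adjusted p = 0.0015), and its 3 dimmer probe sets were at 1.47, 0.09 and -0.15 with none called. The tyrosine phosphatase gene ptpn12 had 782, 853 and 532 at 12 h, against 208, 169 and 190 at 4 h (1.91 ± 0.23, adjusted p = 0.0023), and its dimmer probe set was at 0.43. All 3 genes were also without overlap in sham fish, with the sham 12 h arrays lying between the sham 4 h and the transected 12 h arrays.

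The rest of the named rises had lower signals. The Hox gene hoxc1a had 135, 157 and 128 at 12 h, against 45.6, 50.3 and 16 at 4 h (2.07, adjusted p = 0.018), and the homeobox gene dlx3b had 80.8, 56.3 and 78.9 at 12 h, against 16, 16 and 19.2 at 4 h (2.06, adjusted p = 0.019). The secreted fetuin fetub was at 2.07, ftcd, an enzyme of histidine breakdown, at 2.21, and the claudin gene cldn10l2 at 1.90. For ftcd and cldn10l2 most transected 4 h arrays lay at the floor. The sham changes were 0.55 for hoxc1a and 1.24 for cldn10l2, both without overlap. They were 0.42 for dlx3b, 1.18 for fetub and 0.84 for ftcd, all with overlap. Among the called probe sets without a gene symbol the largest rise was 3.03 (adjusted p = 0.003) and the largest fall -2.15 (adjusted p = 0.025), both looked up after the values were seen.

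**Figure D3:**
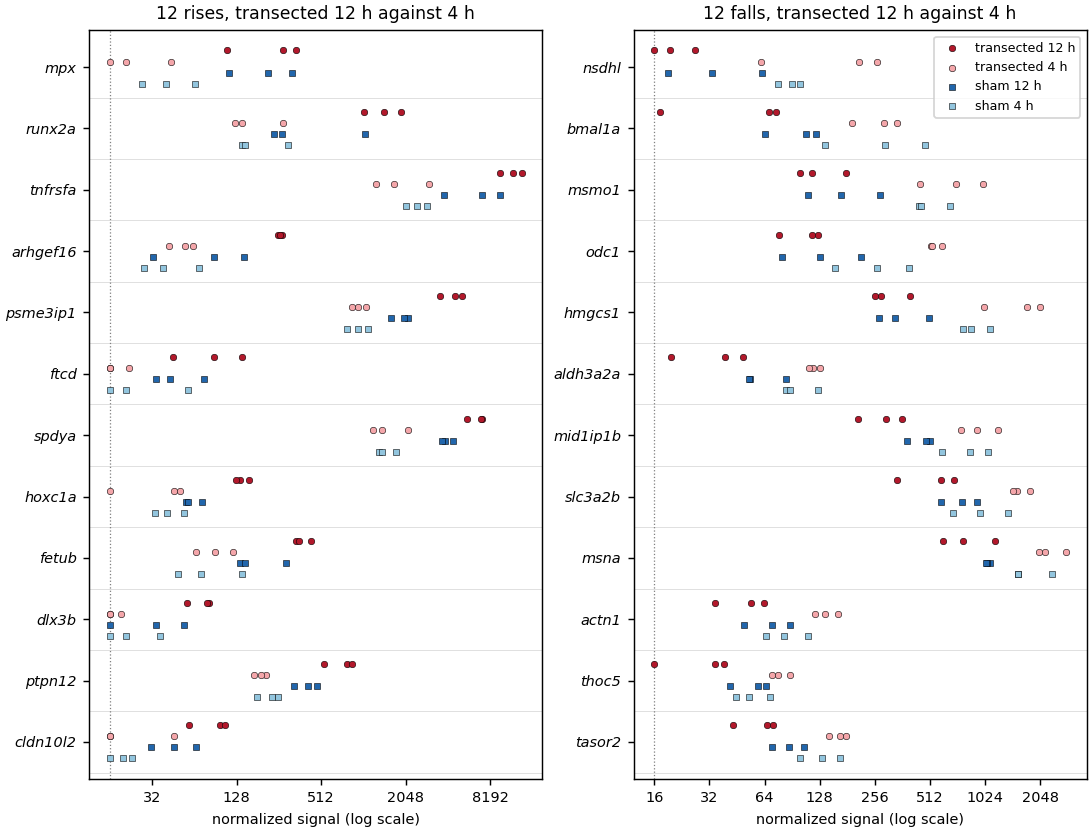
Signals on each array (log scale) for the 12 rises and 12 falls named by the rule, with the groups of each gene stacked from transected 12 h at the top to sham 4 h at the bottom and the floor at 16 dotted. The transected groups are apart for all 24 genes, and the sham 12 h arrays lie between the transected 12 h arrays and the 4 h arrays for spdya, psme3ip1 and ptpn12.

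Of 32 clock genes, 2 passed in transected fish and 1 of these also in sham fish. Among the 32, 18 were higher and 12 lower at 12 h after transection with a median of 0.03 (0.15 with the GAPDH ratio as a covariate). The 2 called (6.25%, against 1.56% of all genes) went in opposite directions. The transected groups did not overlap for 8 of the 32 that were higher and 4 of the 32 that were lower at 12 h. Over all 8793 genes these counts were 844 (9.6%) and 1062 (12.1%). The sham groups did not overlap for 5 of the 32 higher and 3 of the 32 lower, against 438 (4.98%) and 471 (5.36%) of all 8793 genes. Bmal1a, the activator of the loop, had 17.1, 67.6 and 74.4 at 12 h, against 193, 288 and 338 at 4 h (-2.59 ± 0.56, adjusted p = 0.045). Its sham arrays had 64.2, 107 and 123 at 12 h, against 137, 483 and 292 at 4 h (-1.50 ± 0.56). The Rev-erb gene nr1d2b, a repressor of Bmal, had 432, 546 and 489 at 12 h, against 284, 262 and 229 at 4 h (0.92 ± 0.15, adjusted p = 0.018). It was 1 of the 4 probe sets called in sham fish, where it had 585, 458 and 494 at 12 h, against 209, 226 and 192 at 4 h (1.29 ± 0.15, adjusted p = 0.029).

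Other clock genes had changes as large that did not pass. The repressor gene ciarta had 635, 499 and 512 at 12 h, against 133, 46.9 and 123 at 4 h after transection (2.58 ± 0.69, adjusted p = 0.10), and 562, 478 and 533 in sham fish at 12 h, against 152, 35.1 and 29.5 in sham fish at 4 h (3.28 ± 0.69, adjusted p = 0.36). The cryptochrome gene cry3b had 70.0, 30.8 and 91.2 at 12 h, against 137, 206 and 268 at 4 h (-1.76 ± 0.56), close to its sham change of -1.73. The output factor tefa was at 0.85 (1.04 in sham fish), bhlhe40 at 0.86 (0.96), per3 at 0.95 (0.63), npas2 at -1.36 (-1.34) and bmal1b at -1.13 (-0.79). With the GAPDH ratio as a covariate cry3b was at -0.45, tefa at -0.08, bhlhe40 at 0.12 and npas2 at -0.31, nearer to 0. Ciarta was then at 4.50, per3 at 1.84 and bmal1a at -3.37, farther from 0. A dimmer cry2 probe set passed (1.42 ± 0.25, adjusted p = 0.018), whereas the brightest one was at 0.33. The one clock gene named here that leaned opposite ways was per2, which light induces in zebrafish: it had 68.5, 76.4 and 47.5 at 12 h, against 112, 109 and 301 at 4 h after transection (-1.29 ± 0.52), and a sham change of 0.72 ± 0.52. The difference of the steps for per2 was -2.01 ± 0.73 (adjusted p = 1).

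**Figure D4:**
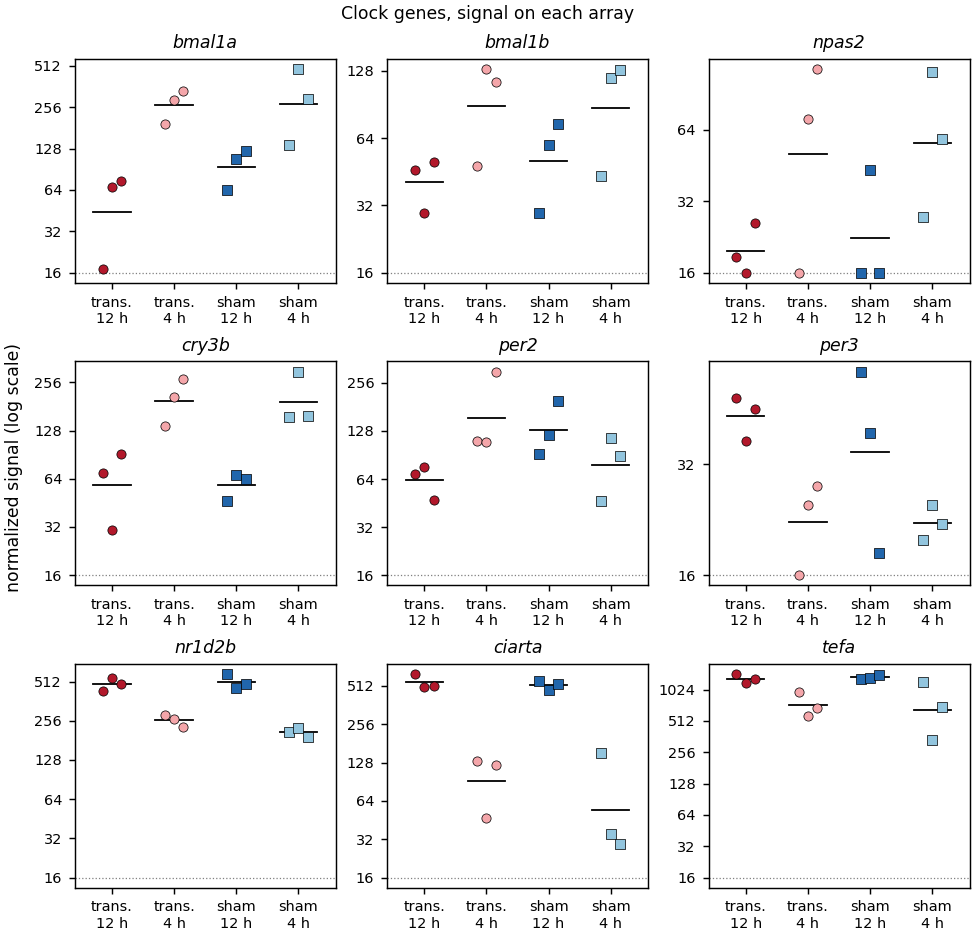
Signals of 9 clock genes on each of the 12 arrays at 12 h and 4 h (points, log scale; lines are geometric means, and the dotted line is the floor at 16), chosen after their values were seen. Bmal1a and cry3b are low and nr1d2b and ciarta are high at 12 h in both transected and sham fish, while the geometric mean of per2 is lowest in transected fish at 12 h.

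Genes for building proteins and for respiration were mostly lower, by small amounts. Over all 8793 genes 4259 were lower and 3535 higher, and 1.56% were called. Of 59 mitochondrial ribosomal proteins 49 were lower and 10 higher (median -0.31, sham -0.20), and mrpl32 was the 1 called (1.69%), at -0.52 ± 0.11. Of 78 subunits of the respiratory complexes 59 were lower and 19 higher (median -0.22, sham -0.10). The transected groups did not overlap for 30 of the 78 that were lower at 12 h, against 1062 of all 8793 genes (12.1%). The complex I subunit ndufa11 had 1091, 1172 and 1036 at 12 h, against 2042, 1894 and 1505 at 4 h (-0.71 ± 0.14, adjusted p = 0.029), and the ATP synthase subunit atp5l had 3929, 3691 and 3520 at 12 h, against 6138, 5718 and 4815 at 4 h (-0.58 ± 0.12, adjusted p = 0.042), the only calls of that list (2.56%). Proteasome subunits were lower in 33 of 43 (median -0.21, sham -0.16), with psmb7 at -0.76 and psmc4 at -0.59 called (4.65%). RNA polymerase subunits were lower in 16 of 20 (median -0.38, sham -0.21), cytosolic ribosomal proteins in 52 of 75 (-0.11, sham -0.06) and translation factors in 41 of 64 (-0.12, sham -0.05), with no call in any of the 3. Among these, polr2j was at -1.04 ± 0.38 and eef1a1l1 at -0.76 ± 0.18. With the GAPDH ratio as a covariate these medians were nearer to 0 or above it, at -0.01 for mitochondrial ribosomal proteins, 0.03 for proteasome subunits, 0.06 for cytosolic ribosomal proteins, -0.12 for respiratory subunits and -0.34 for RNA polymerase subunits. For cytosolic ribosomal proteins it was also 0.00 when arrays were scaled to one trimmed mean in place of quantile normalization.

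Synaptic genes leaned the other way. Of 48 synaptic vesicle and release genes 30 were higher and 16 lower (median 0.07, sham 0.06, and -0.02 with the GAPDH ratio as a covariate). Both calls (4.17%) were rises, against 0.762% of all genes called higher. Rims2a, an active zone scaffold, had 446, 601 and 449 at 12 h, against 281, 285 and 302 at 4 h (0.77 ± 0.12, adjusted p = 0.014). The vesicle proton pump subunit atp6v1d had 588, 674 and 557 at 12 h, against 408, 354 and 336 at 4 h (0.73 ± 0.14, adjusted p = 0.025). Both were without overlap in sham fish too, at 0.51 and 0.50. Of 37 neuron markers 19 were higher and 16 lower (median 0.01) with no call, and their summed signal ranged from 59371 to 61797 at 12 h and from 44936 to 66974 at 4 h. Neurotransmitter receptors and ion channels were higher in 26 of 46 and lower in 11 (median 0.06, and 0.39 with the covariate), with none called. The transected groups did not overlap for 10 of the 46 that were higher at 12 h, against 844 of all 8793 genes (9.6%).

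Of 43 regional transcription factors of the midbrain and basal plate 28 were higher and 13 lower (median 0.09, 0.02 with the covariate, sham -0.02). Gata3 was the 1 called (2.33%, against 1.56% of all genes). Gata3, a factor of GABAergic neurons of the midbrain, had 596, 568 and 559 at 12 h, against 321, 282 and 405 at 4 h (0.79, adjusted p = 0.014). In sham fish it had 533, 507 and 543 at 12 h, against 410, 485 and 513 at 4 h, so the transected 4 h arrays were the lowest and the transected 12 h arrays the highest of the 12. Among markers of other brain regions foxg1b, a forebrain factor, was the only call of 26 (3.85%), with 23.3, 28.8 and 23.2 at 12 h, against 55.1, 61.8 and 59.0 at 4 h (-1.23, adjusted p = 0.023). Its sham change was 0.46, and the difference of the steps did not pass (adjusted p = 0.52). The summed signal of that list ranged from 3602 to 4193 at 12 h and from 3112 to 3564 at 4 h.

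Markers of vessels and meninges were split. Of 16 measured 7 were higher and 8 lower (median -0.10, and 0.04 with the GAPDH ratio as a covariate), and 3 (18.8%) passed, against 1.56% of all genes. The lymphatic and venous receptor gene flt4 had 90.0, 72.3 and 61.1 at 12 h, against 22.6, 27.2 and 23.8 at 4 h (1.59, adjusted p = 0.025), the matrix gene postnb rose by 1.00, and acta2 fell by 0.80. The sham change was 0.89 for flt4, without overlap, and 0.31 for postnb and -0.10 for acta2, both with overlap. The dimmer postnb probe set was at -0.07 ± 0.42 and did not pass. Red cell markers were lower in 11 of 15 (median -0.41, sham -0.10), and their median was -0.86 with the GAPDH ratio as a covariate and between -1.19 and -0.12 over all alternatives. Gata1a, their master transcription factor, was the 1 called (6.67%), with 16.7, 16 and 16 at 12 h, against 33.2, 37.0 and 33.7 at 4 h (-1.09, adjusted p = 0.041). In sham fish gata1a fell without overlap too, with 16, 16 and 17.8 at 12 h, against 27.8, 26.6 and 31.4 at 4 h (-0.78 ± 0.23, not called). The summed red cell signal ranged from 5952 to 8657 at 12 h and from 5370 to 12705 at 4 h, and the vascular sum from 2425 to 3855 at 12 h and from 3671 to 4154 at 4 h. Astroglial genes had a median of -0.07 (0.14 with trimmed-mean scaling), with atp1a1b, a sodium pump subunit, the only call of 27 (3.70%) at -0.66 ± 0.13. Oligodendrocyte markers had 5 of 10 higher and 5 lower, with none called.

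Of the genes most often followed in injured neurons, none passed. The growth cone gene gap43 had 1860, 2080 and 1982 at 12 h, against 994, 1821 and 2084 at 4 h (0.34 ± 0.28, adjusted p = 0.73), a change like that of sham fish (0.30 ± 0.28). The stress factor atf3 had 120, 79.9 and 112 at 12 h, against 112, 70.9 and 59.4 at 4 h (0.40 ± 0.50, adjusted p = 0.91). Its partner jun had 985, 943 and 1054 at 12 h, against 1538, 932 and 582 at 4 h (0.08 ± 0.37, adjusted p = 1). The groups overlapped for all 3. Of 50 genes linked to axon regrowth 27 were higher and 22 lower (median 0.06, sham -0.04) with no call, cebpb being at -1.10 ± 0.26 (adjusted p = 0.064), with 98.1, 67.6 and 118 at 12 h, against 162, 238 and 201 at 4 h. Early response genes were higher in 16 and lower in 26 of 44 (median -0.10, -0.20 with the covariate, sham 0.05), and glucocorticoid-responsive genes higher in 9 and lower in 14 of 24 (median -0.24, sham -0.03), with no call in either list.

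In the other lists calls were few, beside 1.56% called over all genes. Of 37 inflammation and complement genes 13 were higher and 22 lower (median -0.10, sham -0.05), and 1 (2.70%) was called, as a rise. This was c4b, complement C4, with 109, 46.6 and 44.3 at 12 h, against the floor on all 3 arrays at 4 h. Its level was at least 3.80-fold higher at 12 h (limma adjusted p = 0.027). In sham fish c4b was at or near the floor at both times, with 27.1 its highest signal. The heat shock factor gene hsf2 rose in transected fish, with 280, 318 and 293 at 12 h, against 154, 147 and 148 at 4 h (0.99 ± 0.19, adjusted p = 0.025), and was also called in sham fish (1.34 ± 0.19, adjusted p = 0.044). It was the 1 call among 36 chaperone and heat shock genes (2.78%), which had a median of -0.03 (-0.17 with the covariate). Among 33 p53 and apoptosis genes (median -0.22, -0.01 with the GAPDH ratio as a covariate and -0.10 with trimmed-mean scaling, 3.03% called) the survival gene bcl2l10 fell, with 247, 311 and 224 at 12 h, against 440, 471 and 496 at 4 h (-0.86 ± 0.16, adjusted p = 0.021). Among 55 matrix genes (median 0.00, 1.82% called) the collagen gene col5a2a fell, with 19.1, 17.7 and 20.5 at 12 h, against 45.1, 54.0 and 45.9 at 4 h (-1.34, adjusted p = 0.018). The cell cycle list of 56 (median 0.00, 3.57% called) held kif23, a mitotic motor, at 0.95 and cdt1, a replication licensing factor, at -0.21, both of them dim. No gene passed among splicing factors, unfolded protein response genes, neuropeptides, axon guidance genes, lysosomal genes, ubiquitin-conjugating enzymes and chromatin enzymes. In all, 21 of the 37 lists held a called gene and 16 held none, and 22 had a median below 0. For 19 of the 37 the median took both signs over the alternatives.

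**Figure D5:**
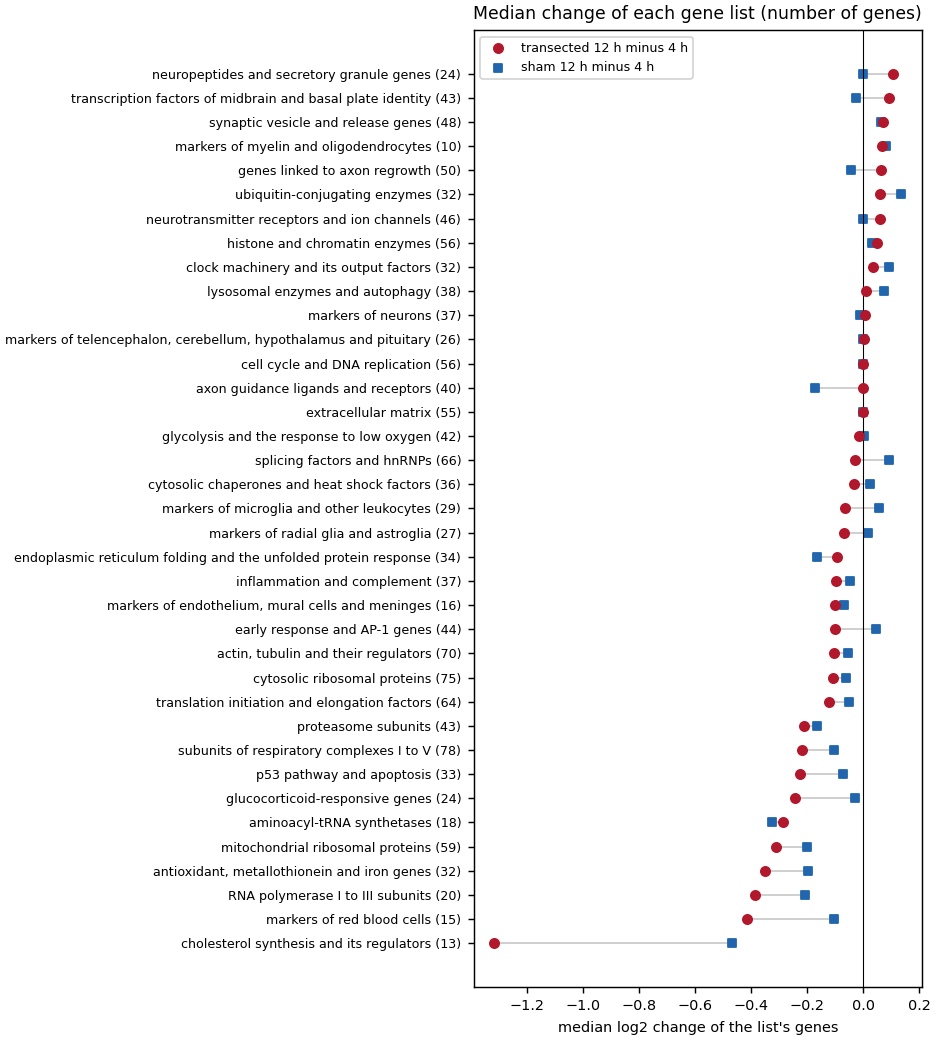
Median log2 change from 12 h minus 4 h of the genes in each of the 37 lists, with the number of genes in brackets, for transected fish (red circles) and sham fish (blue squares). Cholesterol synthesis lies lowest in both, at -1.32 in transected and -0.47 in sham fish, and the other lists lie between -0.41 and 0.11 in transected fish.

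Whether the step differed between transected and sham fish was tested gene by gene, and 1 named gene passed. Cdk5rap2, a centrosome gene, had 48.1, 43.8 and 41.9 at 12 h, against 16, 19.4 and 16 at 4 h after transection (1.38 ± 0.07, limma adjusted p = 2.7e-06). Every sham array at these times lay at 16.5 or below. The difference of the steps was 1.40 ± 0.11 (limma adjusted p = 0.00015). Most of the other 9 arrays lay at the floor, which narrows the spread, so this SE and p-value are likely too small. With a floor at 1 in place of 16, the test of the difference called no probe set. The probe set is dim, and it is not among those tested when the 5168 dimmest probe sets are left out. The other call was of a probe set with no gene symbol, with a difference of 0.24. It was at 18 to 19.4 at 12 h after transection and lay at the floor, or within 0.1 of it, on the other 9 arrays at these times.

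Among probe sets with a signal above the median, the genes next in order did not pass (limma adjusted p = 0.87 to 1) and are given as values. Dimmer probe sets came nearer to the threshold. A cbsb probe set differed by 0.67 ± 0.11 (limma adjusted p = 0.12), with its sham arrays at both times all at the floor. That probe set had levels of 27.8 at 12 h and 17.5 at 4 h after transection, and arrays at the floor narrow its SE. The brighter cbsb probe set differed by -0.06 ± 0.19. Riok1, a kinase of ribosome assembly, had 219, 244 and 174 at 12 h, against 68.3, 92.8 and 95.0 at 4 h after transection, and 89.7, 95.5 and 101 in sham fish at 12 h, against 69.1, 113 and 97.6 in sham fish at 4 h (difference 1.25 ± 0.26, adjusted p = 0.87). Only the transected 12 h arrays stood apart. Pdzk1ip1 differed by 1.22 ± 0.31, palm3 by 1.57 ± 0.48 and psme3ip1 by 1.18 ± 0.34. On the lower side, the carboxypeptidase gene cpvl had 98.7, 86.7 and 121 at 12 h, against 233, 230 and 207 at 4 h after transection, and 161, 132 and 143 in sham fish at 12 h, against 212, 182 and 178 in sham fish at 4 h (difference -0.74 ± 0.16, adjusted p = 0.92). The stress granule gene g3bp1 differed by -0.58 ± 0.14, bcl2l10 by -0.93 ± 0.22 and the DNA polymerase gene poll by -1.15 ± 0.28. For bcl2l10 and poll the transected 12 h arrays were below all 9 other arrays at these times. Desmb and utp23 were higher at 12 h after transection (0.63 and 0.51) and lower at 12 h after sham surgery (-0.77 and -0.83), with the transected changes not called, and cln6a and chsy3 leaned the opposite way.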

How the data were processed

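Zebrafish NMLF RNA was measured on 18 Affymetrix arrays. The deposited values are 1 linear intensity per probe set and array, and no label or header used here names the authors' program for combining probes. Per the labels, RNA was amplified and labelled as biotin cDNA. With 2% trimmed from both tails, the mean deposited intensity of an array was 149.9 on 16 of them. It was 92.6 for transected 4 h replicate 3 and 100.3 for sham 4 h replicate 3.

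All 18 arrays were quantile-normalized, floored at 16 and taken to log2. The floor then held 27.5% to 27.6% of an array's tested probe sets. Tests ran on 15502 of 15617 probe sets, without the 115 controls. GEO's platform annotation, which can be old, gave a single gene symbol for 10795 of these (8793 genes), several for 135 and none for 4572. A gene is given by its brightest probe set unless stated otherwise. One model of 6 group means was fitted with limma 3.58.1 in R 4.3.3 (eBayes with default settings, 12 residual and 0.51 prior degrees of freedom). P-values were adjusted by Benjamini-Hochberg over all 15502, with a threshold of 0.05. The code of the fit was run on simulated arrays with known changes and independent noise. Those arrays lacked the shared deviations and the GAPDH ratio step of the real ones, so the run cannot speak to either. The contrasts were the transected step, the sham step and their difference. Gene lists were described by counts and medians, with no set test. Some lists share genes.

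Members and lists were chosen with earlier results of these data known. Genes were named by rule: the 12 largest called rises and the 12 largest called falls whose groups did not overlap, with the higher group at 64 or more, the 8 highest and 8 lowest differences of the steps by unadjusted p (only for signals above the median probe set), up to 4 called members of each list (or 2 by unadjusted p), the clock genes, and atf3, jun and gap43. Not every gene so picked is given.

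Replicate numbers did not pair the times: deviations of same-numbered transected arrays correlated at -0.12, 0.09 and -0.13 between 12 h and 4 h. They pair transected with sham arrays at 4 h only, by the same check. Alternatives were other scaling, floors, filters, variance priors, arrays in the fit, a replicate block, the GAPDH ratio as a covariate and each array left out. Fits that leave out the 5168 dimmest probe sets while holding the GAPDH ratio, and a block within each time, were added after seeing the data.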

Additional observations from a re-analysis of the deposited data

Results flagged for a closer look

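For 2 probe sets the change of 12 h minus 4 h differed between transected and sham fish by the test of the difference itself (limma). For cdk5rap2 the transected step exceeded the sham step by 1.40 ± 0.11 (adjusted p = 0.00015), with all 3 transected 12 h arrays at 41.9 or more and no other array at these times above 19.4. For a probe set with no gene symbol the difference was 0.24 (adjusted p = 0.015), and its transected 4 h arrays all lay at the floor of 16. Both are dim, and neither is among the 10334 probe sets left when the 5168 dimmest are taken out. Arrays at the floor narrow the spread behind both p-values, and with a floor at 1 the test called no probe set.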

How the results depend on the processing

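None of the 61 named genes called in the transected step took the opposite sign under any of the 17 alternatives that tested it. With a floor at 32 the change of cdt1 was 0. The 61 were picked as called and their transected groups did not overlap. Leaving out an array could therefore hardly reverse a sign, and several other alternatives alter the spread more than the change. Counts of calls moved. The transected step, at 191 calls, gave 240 with arrays scaled to one trimmed mean (63.8% of them higher, against 53.9% of the 191, with the median of the brighter probe sets at 0.04, against -0.03), 160 with a floor at 32, 190 without the 5168 dimmest probe sets (134 of them among the 191), 103 with a floor at 1, 118 without the 11 d arrays, 41 from the 6 transected arrays alone, 77 without both replicate 3 arrays at 4 h, 3 with the GAPDH ratio as a covariate, and 4 with that covariate and the 5168 dimmest probe sets left out. With a replicate block it gave 185, of which 154 were among the 191. Leaving out each array gave 34 to 282 calls in the transected step, 0 to 6 in the sham step and 1 to 13 in the difference of the steps, and a GAPDH ratio of 2.34-fold to 2.54-fold. The sham step, at 4 calls, gave 0 by limma with a floor at 1, without the 5168 dimmest probe sets, with the replicate block, and with the covariate and the 5168 dimmest probe sets left out (889, 683, 974 and 893 at an unadjusted p under 0.05), 1 with the covariate and 1 without both replicate 3 arrays at 4 h. It gave 0 without sham 4 h replicate 2 (718 unadjusted). The difference of the steps, at 2 calls, gave 4 with trimmed-mean scaling, 1 without the 11 d arrays, 2 with the replicate block, 1 with a replicate block within each time, and 0 by limma with a floor at 1, without the 5168 dimmest probe sets, and with that filter and the covariate (601, 361 and 432 unadjusted). The cause of these shifts was not tested, beyond there being fewer arrays or probe sets in some fits. Signals near the floor limit what the dimmest probe sets can show.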
